A study of Mus musculus with 39 samples.

Results

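Cells labelled as combined granulocytic and monocytic (G+M) myeloid-derived suppressor cells were sorted from the intestine and from the spleen of APCmin/+ mutant mice, and polyadenylated RNA was sequenced from 3 libraries of each tissue. These 6 of the 39 libraries in the series were chosen by their titles and are compared here, intestine against spleen. Both groups carry the mutant Apc allele, so no wild-type animal enters the fold changes. The standard errors and p values pool the spread within all 13 groups of the series, which also include B6 marrow and BALB/c spleen. The age of the mice is not given in the sources used here. Further points of comparison are the 3 libraries of all single cells of APCmin/+ intestine, and the separate G and M sorts of APCmin/+ intestine and spleen (3 libraries each). Neither the surface antigens of the sort nor the stretch of intestine is given in the sources used here. Likewise unstated is whether replicate libraries stem from different mice. The p values therefore measure only the spread between replicate libraries, which may be technical. However, library 3 of either tissue differed from libraries 1 and 2 in sex-linked transcripts.

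Myeloid-derived suppressor cells are immature neutrophil-like and monocyte-like cells that expand in spleen during tumour growth and restrain T cells. In mice they are usually sorted as CD11b+ cells (Itgam) that carry Ly6G (granulocytic) or Ly6C (monocytic). The APCmin allele truncates Apc, a brake on Wnt signalling, and leads to adenomas along the intestine. The intestinal lining is a sheet of absorptive enterocytes with mucus-secreting goblet cells, antimicrobial Paneth cells at the base of the crypts, hormone-secreting enteroendocrine cells and chemosensory tuft cells, all renewed by Wnt-dependent stem cells.

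The deposited values are TPM, transcript shares that sum to 1000000 in every library, so they do not tell how many reads lie behind a value, and no interval for counting error can be set. A gene was tested if its TPM was at least 1 in at least 3 of the 6 libraries, which held for 15208 of the 53465 genes. Of these, 10955 reached a TPM of 1 in all 6 libraries, 1861 did so in the 3 intestinal libraries alone and 911 in the 3 splenic libraries alone. Fold changes are differences of mean log2(TPM + 1), intestine minus spleen, with their standard errors from limma, and they understate the change of genes near 0. A gene was called when its Benjamini-Hochberg adjusted p was below 0.05 and its log2 fold change reached 1 or -1.

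The intestinal and splenic combined sorts were far apart. Across genes, Pearson's r of log2(TPM + 1) was 0.970 to 0.974 among the intestinal libraries, 0.965 to 0.983 among the splenic libraries and 0.485 to 0.523 between the tissues. Of the 15208 genes tested, 3408 (22.4%) were called higher and 3533 (23.2%) lower in intestine, together 45.6%. The tissues' libraries did not overlap for 75.9% of genes, so a lack of overlap between the groups was common here. The median log2 fold change of all genes tested was -0.18. When the libraries were rescaled by the median ratio of widely expressed genes that median moved to 0.05, and the share of higher genes among those called moved to 56.8%, against 49.1% as deposited.

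The intestinal libraries did not carry the leukocyte signature that their label names. Ptprc (chromosome 1, 138062861 to 138175708, mm10), which encodes the pan-leukocyte phosphatase CD45, had 13.2, 14.0 and 13.6 TPM in intestinal sorts, against 724, 676 and 914 TPM in splenic sorts. This is a log2 fold change of -5.71 ± 0.21 (adjusted p = 6.42e-21). All cells of the intestine, unsorted, averaged 55.5 ± 12.2 TPM of Ptprc (SD, n = 3), above all 3 intestinal sorts. The 16 leukocyte and sort-gate antigens together summed to 213, 333 and 252 TPM in intestinal sorts and to 7442, 8997 and 9837 TPM in splenic sorts. Of these 16 genes 15 were called lower in intestine, with a list median of -5.38. Itgam, the integrin chain CD11b, had 7.39, 8.07 and 3.76 TPM in intestinal sorts against 232, 386 and 285 TPM in splenic sorts. The exception was Ly6c1, a Ly6 surface antigen also made by endothelium, which was called higher in intestine at 2.38 on the log2 scale. In bulk RNA, fewer cells of a type and less RNA per cell cannot be told apart. The libraries are therefore called intestinal and splenic combined sorts, by their labels, and not suppressor cells.

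**Figure D1:**
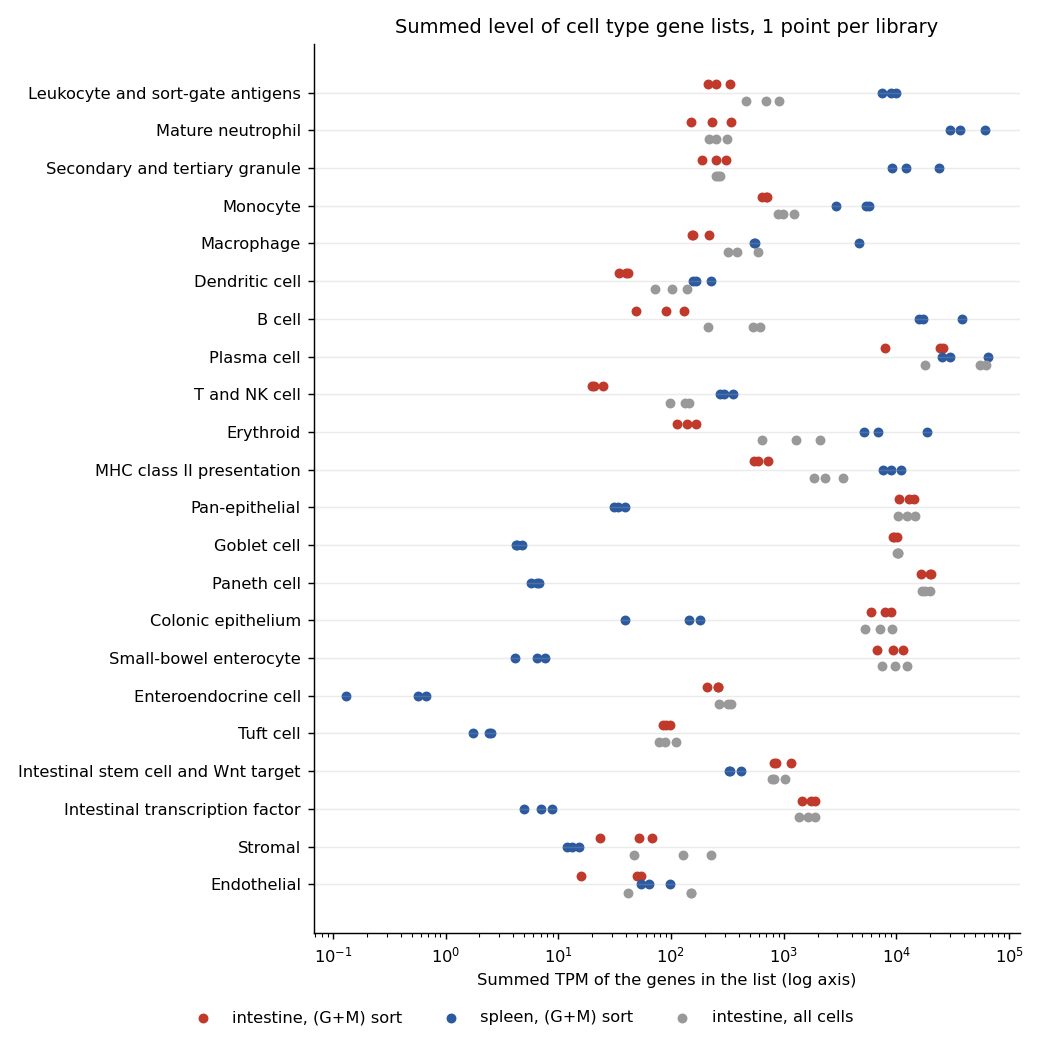
Summed TPM (log axis) of 22 cell type gene lists in each library of the intestinal combined sort, the splenic combined sort and all intestinal cells. Leukocyte, neutrophil, B cell and erythroid lists are high in the splenic libraries, whereas the epithelial lists of the intestinal sorts lie at the level of unsorted intestine.

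Epithelial genes were higher in the intestinal sorts. Across 9 lists of epithelial lineages and intestinal transcription factors, 116 of 119 genes passed the filter on low values, 115 were called higher and 1 was called lower. Many of these genes passed the filter through the intestinal libraries alone, so these counts describe the libraries and are no test of the lists. The same holds below for neutrophil, granule, B cell and other lists with genes that passed through the splenic libraries alone. The 14 pan-epithelial genes summed to 14430, 10550 and 12910 TPM in intestinal sorts, against 34.0, 31.1 and 39.5 TPM in splenic sorts, and all 14 were called higher with a list median of 8.57. Epcam, the adhesion molecule used to gate epithelium, had 977, 771 and 848 TPM in intestinal sorts and 3.88, 2.75 and 4.84 TPM in splenic sorts (7.51 ± 0.26, adjusted p = 1.56e-21). Krt8, an intermediate filament of simple epithelia, had 2986, 2154 and 2704 TPM in intestinal sorts, against 0.33, 0.18 and 0.28 TPM in splenic sorts. The tissues overlapped in none of the 14.

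The transcription factors that specify intestinal epithelium were higher in intestine as well. All 15 genes of that list were called higher in intestine, with a median of 6.41. Hnf4a, a nuclear receptor of enterocytes, had 347, 248 and 295 TPM in intestinal sorts and 0.11, 0.07 and 0.01 TPM in splenic sorts. Cdx2, the homeobox factor that sets intestinal identity, had 99.9, 76.0 and 96.0 TPM in intestinal sorts and was listed at 0 in every splenic sort, as was Cdx1. Vdr, the vitamin D receptor, and Elf3, an epithelial Ets factor, were higher in intestine by 7.49 ± 0.21 and 8.25 ± 0.24 on the log2 scale.

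Goblet cell genes were among the most abundant in the intestinal sorts and were even across them. Muc2 (chromosome 7, 141690340 to 141754693), the gel-forming mucin of the intestinal mucus layer, had 2393, 2319 and 2471 TPM in intestinal sorts, against 0.67, 0.53 and 0.58 TPM in splenic sorts (10.55 ± 0.42, adjusted p = 4.37e-20). All 13 goblet cell genes were called higher, with a median of 8.85. Zg16, a mucus lectin, reached 2221, 2837 and 2215 TPM in intestinal sorts against 1.94, 2.49 and 1.58 TPM in splenic sorts. Tff3, a trefoil peptide secreted with mucin, had 1116, 1333 and 966 TPM in intestinal sorts, and was listed at 0 in splenic sorts 2 and 3 with 0.14 TPM in the first. The transcription factors of the secretory lineage were lower in level but also higher in intestine, Spdef by 4.85 and Atoh1 by 4.30 on the log2 scale.

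Paneth cell genes gave the highest list median of all lists, 10.15 over 9 genes, each called higher. Defa24, an alpha-defensin that kills bacteria, had 5125, 6760 and 6688 TPM in intestinal sorts, against 1.02, 0.18 and 0.88 TPM in splenic sorts. The alpha-defensins are near-identical copies, so reads could be shared between them and the level of any single member is uncertain. Lyz1, the lysozyme of Paneth cell granules, had 2302, 2734 and 2231 TPM in intestinal sorts and 3.50, 5.89 and 5.48 TPM in splenic sorts, a log2 fold change of 8.69 ± 0.28 (adjusted p = 1.61e-22).

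The neighbouring lysozyme gene went the other way. Lyz2, the lysozyme of neutrophils, monocytes and macrophages, had 48.0, 80.0 and 45.7 TPM in intestinal sorts and 1675, 4061 and 3102 TPM in splenic sorts, a log2 fold change of -5.60 ± 0.44 (adjusted p = 1.27e-12). Both genes lie on the minus strand of chromosome 10, Lyz1 at 117287797 to 117292868 and Lyz2 at 117277331 to 117282321. They are paralogs whose transcripts are similar, and reads shared between them, whose part in these values was not tested, make the lower value of each uncertain. Their promoters are shown because these adjacent copies were divided between the tissues. The windows are the 250 bases before each start in RefSeq (GRCm38.p6), chr10:117292869-117293118 for Lyz1 and chr10:117282273-117282522 for Lyz2, printed 5′ to 3′ on the minus strand, with capitals at bases that differ between them in a global alignment.
Lyz1: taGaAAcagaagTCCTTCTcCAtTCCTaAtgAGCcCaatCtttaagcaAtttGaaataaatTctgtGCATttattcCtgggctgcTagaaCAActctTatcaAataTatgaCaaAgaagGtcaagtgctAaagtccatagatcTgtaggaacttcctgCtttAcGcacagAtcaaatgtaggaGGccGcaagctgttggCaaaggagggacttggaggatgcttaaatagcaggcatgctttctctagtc
Lyz2: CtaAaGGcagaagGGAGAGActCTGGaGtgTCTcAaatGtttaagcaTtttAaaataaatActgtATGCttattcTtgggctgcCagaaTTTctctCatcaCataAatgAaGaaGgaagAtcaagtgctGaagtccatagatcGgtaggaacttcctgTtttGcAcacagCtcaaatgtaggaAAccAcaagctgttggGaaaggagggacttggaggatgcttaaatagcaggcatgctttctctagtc
The windows were identical in 200 of 252 aligned columns (79.4%), including all of the last 50 bases before the RefSeq start, and the differing bases lay farther upstream. The annotations place the start of Lyz2 differently: that of GENCODE lies inside the window printed here.

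**Figure D2:**
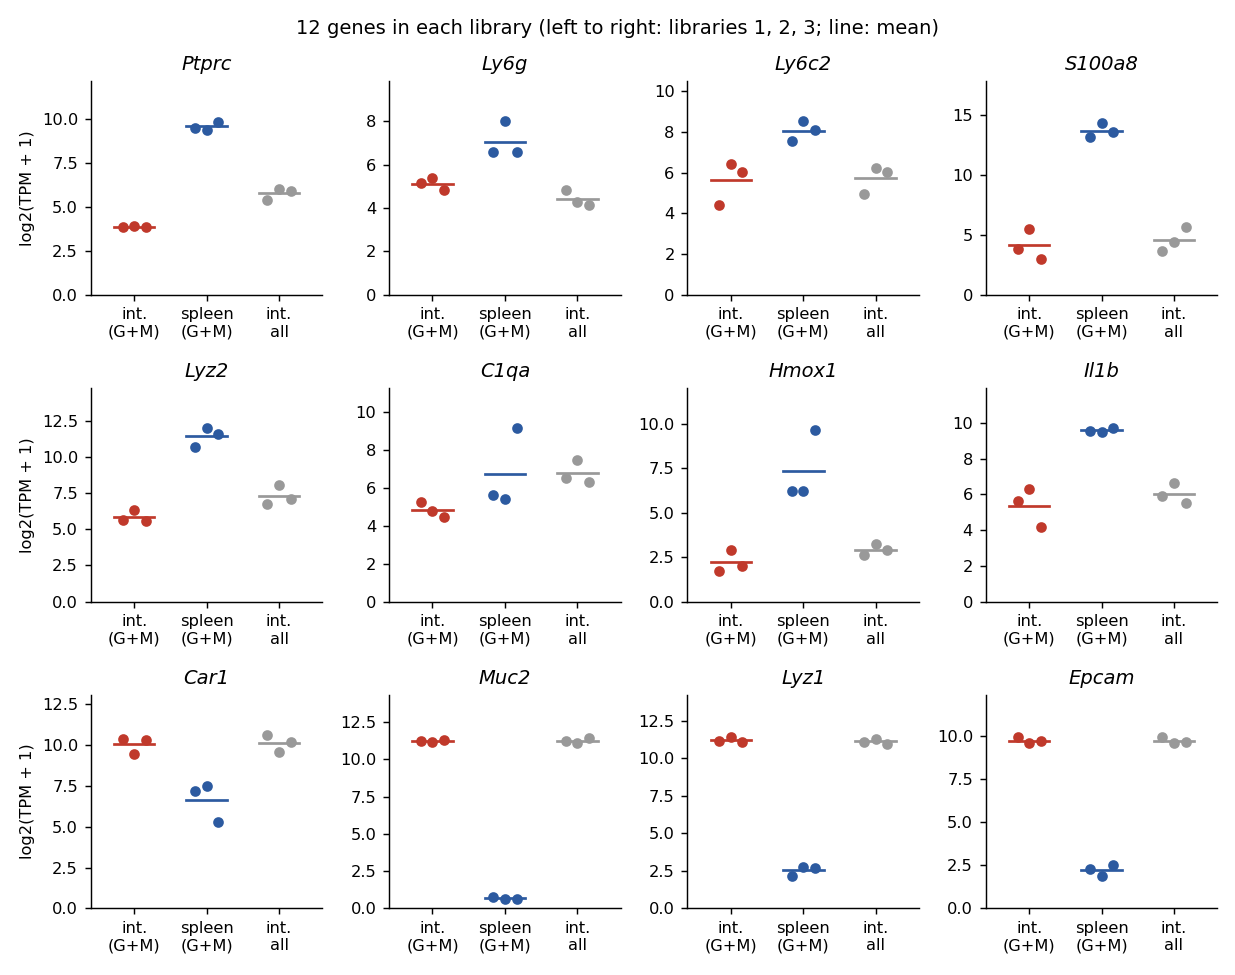
log2(TPM + 1) of 12 genes in each library of the intestinal combined sort, the splenic combined sort and all intestinal cells, with the mean of each group as a line. Muc2, Lyz1 and Epcam of the intestinal sorts match unsorted intestine, Ptprc, S100a8, Lyz2 and Il1b are high in spleen, and C1qa and Hmox1 are high in the third splenic library.

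Absorptive genes of both small bowel and colon were present in the same intestinal libraries. All 18 small-bowel enterocyte genes were called higher in intestine (median 7.37), as were all 11 colonic genes tested (median 7.52), of 13 in that list. Fabp6, the ileal bile acid binding protein, had 5242, 1539 and 1797 TPM in intestinal sorts and 0.70, 0.46 and 0.60 TPM in splenic sorts. Apoa1, an apolipoprotein of chylomicrons, had 1394, 1413 and 2029 TPM in intestinal sorts, against 0.30, 0.24 and 0.19 TPM in splenic sorts. Lypd8, a colonic protein that keeps flagellated bacteria from the epithelium, had 5061, 3241 and 3988 TPM in intestinal sorts, against 0.56, 0.12 and 0.24 TPM in splenic sorts (11.61 ± 0.52, adjusted p = 1.31e-18). The first intestinal library was the highest for Fabp6 and for Lypd8, and the second was the lowest for both.

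Car1 is the marker whose reading depends on the cell type. It encodes carbonic anhydrase 1, abundant in colonic epithelium and in erythroid cells, and lies on chromosome 3 at 14766216 to 14808368. Its level was 1359, 695 and 1284 TPM in intestinal sorts, against 144, 180 and 38.1 TPM in splenic sorts (3.41 ± 0.55, adjusted p = 2.07e-06). Haemoglobin genes were high in the same splenic sorts, and their part in the splenic Car1 level was not tested. Hba-a1, the alpha chain of haemoglobin, had 3.70, 10.6 and 6.35 TPM in intestinal sorts and 1416, 4213 and 1047 TPM in splenic sorts. Of 13 erythroid genes 12 were called lower in intestine, with a median of -4.96, and the remaining gene was Tfrc, the transferrin receptor, at 0.38 ± 0.40 (adjusted p = 0.405). The second splenic library was the highest and the third the lowest for both Car1 and Hba-a1.

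Hormone and chemosensory genes were low in level but separated the tissues. All 14 enteroendocrine genes were called higher in intestine (median 4.55). Chga, chromogranin A of hormone granules, had 31.2, 28.3 and 23.7 TPM in intestinal sorts and was listed at 0 in every splenic sort, as were Gcg, Gip, Nts, Pyy and Sst, which encode gut peptide hormones. The 6 tuft cell genes tested, of 7, were all called higher (median 3.43), among them Trpm5, a cation channel of taste signalling, with 15.6, 9.25 and 15.02 TPM in intestinal sorts against 0.60, 0.36 and 0.55 TPM in splenic sorts.

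Wnt target genes were higher in intestine, and the second intestinal library carried the most of the strongest of them. Of 17 stem cell and Wnt target genes 16 were called higher, with a median of 3.92. Notum, a secreted Wnt inhibitor that Apc-mutant cells produce, had 28.6, 80.7 and 31.2 TPM in intestinal sorts, and 0, 0.05 and 0 TPM in splenic sorts. Nkd1, a negative feedback regulator of Wnt signalling, had 29.5, 98.0 and 23.1 TPM in intestinal sorts and at most 0.06 TPM in splenic sorts. Axin2, a component of the complex that degrades beta-catenin, had 49.3, 68.6 and 43.7 TPM in intestinal sorts against 1.31, 1.26 and 0.85 TPM in splenic sorts (4.66 ± 0.21, adjusted p = 1.37e-18). Cd44, a Wnt target that leukocytes also express, was the member called lower, with 22.7, 38.7 and 27.3 TPM in intestinal sorts and 297, 248 and 383 TPM in splenic sorts.

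Genes of mucosal defence were high and uneven among the intestinal libraries. Of 10 such genes 9 were called higher. Reg3b, a secreted antibacterial lectin, had 5610, 2113 and 2763 TPM in intestinal sorts, against 1.04, 0.49 and 0.11 TPM in splenic sorts. Pigr, the receptor that carries IgA and IgM across the epithelium, had 1322, 853 and 1231 TPM in intestinal sorts and 1.07, 0.61 and 0.83 TPM in splenic sorts (9.26 ± 0.31, adjusted p = 5.39e-22). Pglyrp2, a peptidoglycan amidase, was the member called lower, at -3.55. The largest log2 fold change under the naming rule was that of Sprr2a2, a small proline-rich protein of epithelium, with 9543, 8643 and 8037 TPM in intestinal sorts and 1.65, 1.05 and 0.75 TPM in splenic sorts (12.01 ± 0.61), and its near-identical family members make its own share uncertain.

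**Figure D3:**
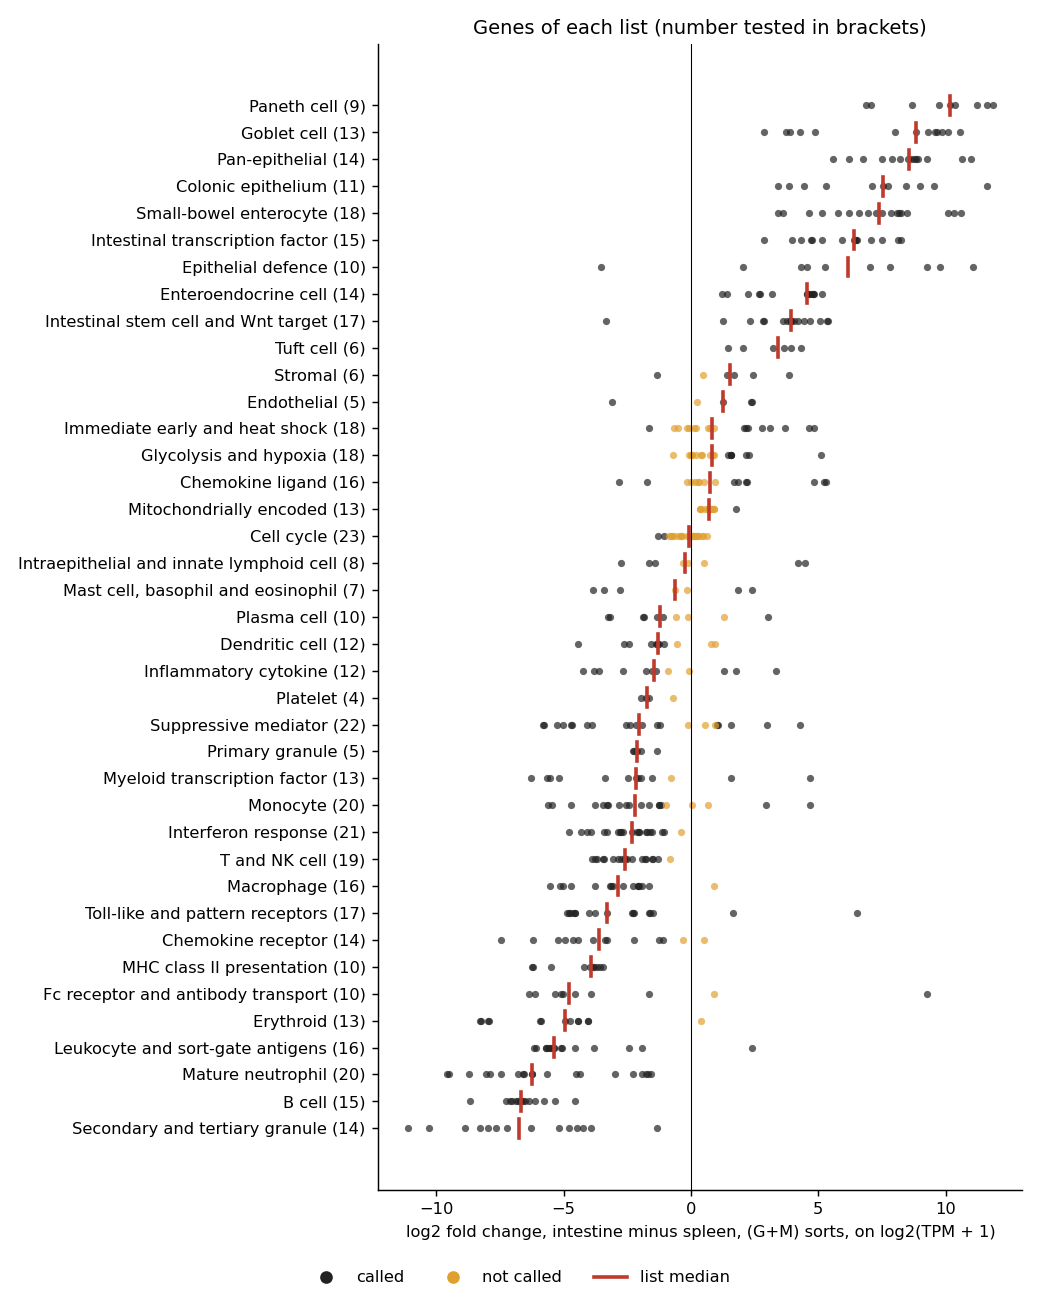
log2 fold changes (intestine minus spleen, on log2(TPM + 1)) of the tested genes in 39 lists, with called genes in black, others in yellow and the list median as a red bar. The epithelial lists lie right of 0 from Paneth cell (10.15) to tuft cell (3.43), and the secondary granule, B cell, neutrophil and leukocyte lists lie between -6.75 and -5.38.

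Neutrophil genes were among the most reduced. All 20 mature neutrophil genes were called lower in intestine, with a median of -6.24, and their sum was 232, 338 and 150 TPM in intestinal sorts, against 29790, 61080 and 36330 TPM in splenic sorts. S100a8 (chromosome 3, 90668978 to 90670035), a subunit of calprotectin, had 13.6, 45.1 and 6.88 TPM in intestinal sorts, against 9406, 20526 and 12210 TPM in splenic sorts (-9.58 ± 0.73, adjusted p = 5.24e-13). Csf3r, the receptor of the neutrophil growth factor G-CSF, had 8.18, 12.5 and 1.93 TPM in intestinal sorts and 1684, 1720 and 1727 TPM in splenic sorts. The second intestinal library was the highest and the third the lowest for both genes. Cxcr2, the chemokine receptor that draws neutrophils to tissue, had 1.10, 2.34 and 0.42 TPM in intestinal sorts and 338, 380 and 417 TPM in splenic sorts.

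Ly6g, the antigen that defines granulocytic cells in mouse, had a smaller log2 fold change than these genes. Stfa2, Stfa3 and Mxd1 of the same list changed less still, by -1.57, -1.69 and -1.75. Ly6g lies on chromosome 15 at 75155240 to 75159126 and had 34.9, 41.0 and 27.5 TPM in intestinal sorts, against 94.6, 258 and 94.0 TPM in splenic sorts (-1.93 ± 0.52, adjusted p = 0.00131). The level in all intestinal cells was 21.0 ± 6.07 TPM (SD, n = 3). Ly6c2, which encodes the Ly6C antigen of monocytes, had 20.5, 85.4 and 64.1 TPM in intestinal sorts and 187, 375 and 271 TPM in splenic sorts (-2.44 ± 0.45, adjusted p = 1.42e-05).

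Granule genes are made in waves as neutrophils mature. Secondary and tertiary granule genes, made by maturing neutrophils, were called lower in intestine in all 14 cases (median -6.75). Ngp, a neutrophilic granule protein, had 0.48, 0.48 and 2.37 TPM in intestinal sorts and 2805, 7723 and 3833 TPM in splenic sorts (-11.13 ± 0.85, adjusted p = 6.12e-13). Camp, the cathelicidin precursor, had 0.22, 0 and 0.95 TPM in intestinal sorts against 1072, 2930 and 1485 TPM in splenic sorts. Primary granule genes, made by promyelocytes, were near the bottom of the scale in both tissues: Mpo, myeloperoxidase, had 0, 0.02 and 0.08 TPM in intestinal sorts and 4.58, 2.85 and 3.12 TPM in splenic sorts. Pglyrp1, a peptidoglycan recognition protein, had the smallest change among the secondary and tertiary granule genes, at 203, 237 and 152 TPM in intestinal sorts and 375, 737 and 443 TPM in splenic sorts (-1.35 ± 0.37, adjusted p = 0.00173).

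Monocyte genes were lower in intestine with exceptions that epithelium also expresses. Of 20 genes 15 were called lower and 2 higher, with a median of -2.19. Without the third splenic library 11 were called lower and 2 higher, with a median of -1.84. Ccr2, the receptor that brings monocytes out of marrow, had 0.84, 2.40 and 1.08 TPM in intestinal sorts and 11.98, 21.71 and 41.42 TPM in splenic sorts. Csf1r, the receptor of the macrophage growth factor, had 19.64, 13.03 and 10.78 TPM in intestinal sorts and 85.8, 76.6 and 453 TPM in splenic sorts. Klf4, a factor of both monocytes and differentiated epithelium, was called higher, with 124, 103 and 130 TPM in intestinal sorts against 3.06, 3.01 and 5.52 TPM in splenic sorts, as was Ace, a peptidase of the enterocyte brush border (2.96).

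The third splenic library stood apart in macrophage genes. The 16 macrophage genes summed to 218, 158 and 153 TPM in intestinal sorts, against 557, 545 and 4641 TPM in splenic sorts. C1qa, a subunit of the complement starter C1q, had 37.2, 26.7 and 20.9 TPM in intestinal sorts, against 48.4, 42.0 and 575 TPM in splenic sorts (-1.91 ± 0.62, adjusted p = 0.00662). Without the third splenic library C1qa fell short of the threshold, at -0.69 ± 0.48 (adjusted p = 0.198), and C1qb likewise, at -0.92 ± 0.47 (adjusted p = 0.0759). Hmox1, the haem oxygenase of red-pulp macrophages, had 2.29, 6.54 and 3.08 TPM in intestinal sorts and 73.4, 73.7 and 794 TPM in splenic sorts, and stayed called without that library (-4.00 ± 0.38). Of the 16 genes 15 were called lower with all libraries, and 11 lower and 1 higher without the third splenic library. Dendritic cell genes were called lower in 9 of 12 cases (median -1.31), and in 6, with 2 higher, without the third splenic library, with Ccr7, a homing receptor, at 1.06, 0.98 and 1.74 TPM in intestinal sorts and 50.9, 38.7 and 52.6 TPM in splenic sorts.

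B cell genes were abundant in the splenic sorts, although B cells are no part of either label. All 15 were called lower in intestine, with a median of -6.68. Cd79a, a subunit of the B cell receptor, had 6.97, 17.1 and 20.6 TPM in intestinal sorts and 815, 645 and 976 TPM in splenic sorts (-5.78 ± 0.41, adjusted p = 7.56e-14). Ighm, the mu heavy chain, had 22.5, 39.4 and 61.7 TPM in intestinal sorts against 32434, 11451 and 10957 TPM in splenic sorts, and the first splenic library was the highest. T and NK cell genes were called lower in 18 of 19 cases (median -2.61), at low levels in both tissues: Cd3e, of the T cell receptor complex, had 1.43, 0.72 and 1.16 TPM in intestinal sorts and 15.4, 11.1 and 13.4 TPM in splenic sorts.

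Genes of antibody secretion were mixed. Igha, the heavy chain of IgA, had 3320, 13445 and 11341 TPM in intestinal sorts, against 1780, 3465 and 5554 TPM in splenic sorts, and did not pass the test (1.30 ± 0.64, adjusted p = 0.0673). Jchain, which joins IgA and IgM into polymers, had 338, 1467 and 1193 TPM in intestinal sorts and 3472, 1697 and 1587 TPM in splenic sorts (-1.33 ± 0.51, adjusted p = 0.0195). Without the first intestinal library the change of Jchain was -0.67 (adjusted p = 0.237), and without the first splenic library it was -0.97 (adjusted p = 0.12), so that call rests on these libraries. Sdc1, a plasma cell marker that epithelium also carries, was called higher in intestine at 109, 120 and 111 TPM, against 19.4, 11.3 and 10.3 TPM in splenic sorts. Of the 10 plasma cell genes 6 were called lower and 1 higher, against 4 lower and 2 higher without the first intestinal library and 4 lower and 1 higher without the first splenic library.

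Antigen presentation by MHC class II was lower in intestine across its list, with all 10 genes called and a median of -3.91. H2-Aa, a class II alpha chain, had 131, 91.1 and 101 TPM in intestinal sorts and 1582, 1313 and 1794 TPM in splenic sorts. H2-Ob and H2-DMb2, which belong to the class II peptide loading pathway, differed more, by -6.22 ± 0.37 and -6.26 ± 0.39.

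Chemokine ligands and their receptors were divided between the tissues. Over all genes tested, 22.4% were called higher and 23.2% lower. Of 16 ligands tested, of 30, 7 were called higher and 2 lower in intestine (median 0.73), whereas 12 of 14 receptors were called lower (median -3.61) and the other 2, Ccr9 and Ccr10, did not pass the test. Ccl25, made by small-bowel epithelium to recruit Ccr9-bearing lymphocytes, had 366, 243 and 288 TPM in intestinal sorts and 6.86, 6.76 and 7.32 TPM in splenic sorts (5.21 ± 0.14, adjusted p = 6.08e-24). Cx3cl1, a membrane-bound ligand, was higher by 5.29 ± 0.17, and Cxcl2, a ligand of Cxcr2, had 10.7, 33.8 and 3.68 TPM in intestinal sorts and 1.44, 1.65 and 2.17 TPM in splenic sorts (2.18 ± 0.56, adjusted p = 0.000898). Ccl6, a ligand made by myeloid cells, was lower, with 189, 204 and 219 TPM in intestinal sorts and 557, 719 and 756 TPM in splenic sorts. Cxcr4, which holds cells in marrow and spleen, had 7.51, 13.02 and 10.34 TPM in intestinal sorts and 411, 364 and 458 TPM in splenic sorts.

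Most mediators by which suppressor cells restrain T cells were lower in intestine. Of 22 tested, of 24, 14 were called lower and 5 higher (median -2.04), and 3 were higher without the first intestinal library. The share of higher genes was close to the 22.4% of all genes. The subunits of the phagocyte oxidase were lower, Cybb with 5.28, 6.61 and 5.06 TPM in intestinal sorts and 196, 319 and 268 TPM in splenic sorts. Cd84, a surface receptor used to mark suppressor cells, had 1.44, 2.23 and 1.15 TPM in intestinal sorts against 128, 152 and 141 TPM in splenic sorts. Cd274, the checkpoint ligand PD-L1, had 4.02, 5.51 and 5.10 TPM in intestinal sorts and 34.97, 25.87 and 40.73 TPM in splenic sorts (-2.55 ± 0.24).

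The arginine-consuming enzymes took a different course from these. Nos2, inducible nitric oxide synthase, had 23.1, 2.70 and 5.18 TPM in intestinal sorts and at most 0.06 TPM in splenic sorts, and was called higher (2.99 ± 0.57). Arg2, mitochondrial arginase, had 91.3, 82.4 and 126 TPM in intestinal sorts against 59.3, 60.7 and 82.0 TPM in splenic sorts, a difference that did not pass (0.55 ± 0.38, adjusted p = 0.194). Arg1, the cytosolic arginase, was below the filter, at 1.94, 3.43 and 0.94 TPM in intestinal sorts and 0.16, 0.30 and 0.16 TPM in splenic sorts. Ptgs2, the inducible cyclooxygenase, had 4.97, 6.38 and 2.36 TPM in intestinal sorts and 1.28, 1.19 and 3.21 TPM in splenic sorts and was not called at 0.94 ± 0.31, short of the fold minimum. The other members called higher were Lgals9, Slc27a2, Ido1 and Nt5e.

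Inflammatory cytokines and sensors were mostly lower in intestine. Il1b, interleukin 1 beta, had 47.8, 76.9 and 17.2 TPM in intestinal sorts and 756, 717 and 831 TPM in splenic sorts (-4.23 ± 0.47, adjusted p = 2.66e-09). Of 12 cytokines 7 were called lower and 3, Il33, Il18 and Lif, were called higher. The share of cytokines called higher was close to the 22.4% of all genes. Il18, which epithelium makes constitutively, had 49.3, 43.2 and 57.5 TPM in intestinal sorts and 11.5, 8.90 and 68.3 TPM in splenic sorts, where the third library exceeded all others (1.31 ± 0.41). Without the third splenic library the log2 fold change of Il18 was 2.19 ± 0.28, while without the first or the second it was no longer called (adjusted p = 0.0533 and 0.0846). Of 17 Toll-like and other pattern receptors 15 were called lower (median -3.29), and the 2 called higher were Tlr3 and Nlrp6, a sensor of intestinal epithelium with 114, 71.5 and 104 TPM in intestinal sorts against 0.06, 0.06 and 0.03 TPM in splenic sorts. Interferon response genes were called lower in 20 of 21 cases (median -2.33).

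Myeloid transcription factors followed the myeloid genes. Of 13, 10 were called lower and 2, Klf4 and Cebpa, were called higher in intestine. Spi1, the Ets factor PU.1 that directs myeloid and B cell fate, had 6.08, 6.03 and 3.63 TPM in intestinal sorts against 270, 308 and 345 TPM in splenic sorts (-5.65 ± 0.31). Nfe2, a factor of megakaryocytes and erythroid cells that neutrophils also express, had 0.33, 0.51 and 0.19 TPM in intestinal sorts and 81.4, 137 and 100 TPM in splenic sorts.

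Lists of genes that most cell types share had medians nearer 0. For comparison, 22.4% of all genes tested were called higher and 23.2% lower. Of 23 cell cycle genes 2 were called, both lower, and the list median was -0.08 (0.17 after rescaling). None was called without the second splenic library (median 0.09), and 4 were called lower without the third (median -0.44). Mki67, a marker of cycling cells, had 36.2, 42.0 and 39.2 TPM in intestinal sorts and 51.0, 87.9 and 31.2 TPM in splenic sorts, which overlap (-0.40 ± 0.29, adjusted p = 0.203). Of 18 glycolysis and hypoxia genes 7 were called higher, among them Ldha, lactate dehydrogenase A, with 784, 711 and 745 TPM in intestinal sorts and 240, 266 and 242 TPM in splenic sorts (1.58 ± 0.14). Of 18 immediate early and heat shock genes, which respond to handling as well as to signals, 8 were called higher and 1, the phosphatase gene Dusp1, lower, and those higher included Egr1, a zinc-finger factor, with 251, 218 and 309 TPM in intestinal sorts and 9.41, 5.48 and 10.4 TPM in splenic sorts. Mitochondrially encoded genes held 15.5, 16.3 and 14.8% of TPM in intestinal sorts and 9.06, 11.1 and 7.85% in splenic sorts. This share moved with the tissue, and without mitochondrial and immunoglobulin genes 6930 genes were called between the tissues.

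**Figure D4:**
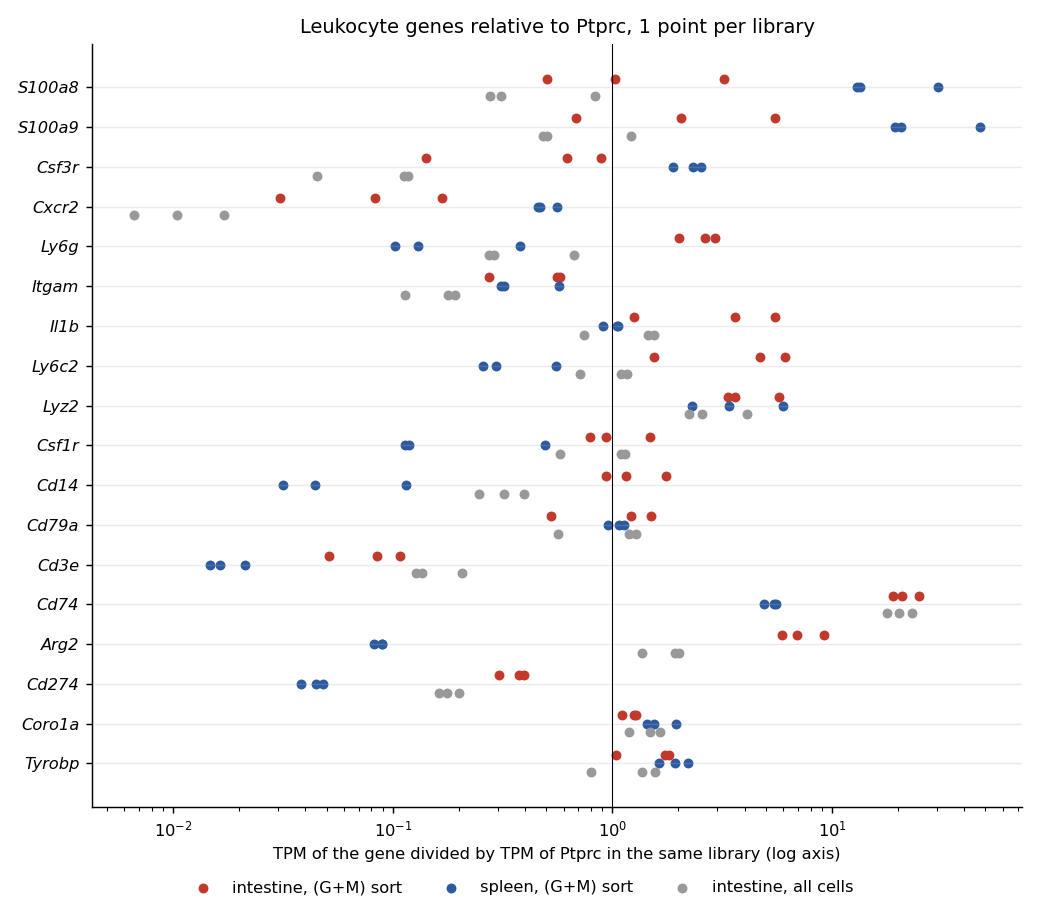
TPM of 18 genes divided by that of Ptprc in the same library (log axis) for the intestinal combined sort, the splenic combined sort and all intestinal cells. Relative to Ptprc, S100a8, S100a9, Csf3r and Cxcr2 are lower and Ly6g, Ly6c2, Cd14, Arg2 and Cd274 higher in the intestinal sorts than in the splenic sorts.

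Because leukocyte RNA was scarce in the intestinal sorts, levels were also set against Ptprc in the same library, a description added after the values were seen. With 3 libraries against 3, the exact permutation test cannot give a p below 0.1, so no test is reported for these ratios. S100a8 was 1.03, 3.22 and 0.504 times Ptprc in intestinal sorts and 13, 30.4 and 13.4 times in splenic sorts. Cxcr2 was 0.0831, 0.167 and 0.0308 times Ptprc in intestinal sorts and 0.467, 0.562 and 0.456 times in splenic sorts, so both neutrophil genes remained lower in intestine on this scale. Ly6g turned the other way, at 2.64, 2.93 and 2.01 times Ptprc in intestinal sorts against 0.131, 0.382 and 0.103 times in splenic sorts. In all intestinal cells it was 0.671, 0.288 and 0.273 times Ptprc, and which cells carry the Ly6g transcripts was not tested. Il1b was 3.62, 5.49 and 1.26 times Ptprc in intestinal sorts, against 1.045, 1.06 and 0.909 times in splenic sorts, and also lay higher in intestine without overlap. Lyz2 overlapped between the tissues, at 3.63, 5.72 and 3.35 times Ptprc in intestinal sorts and 2.32, 6.00 and 3.39 times in splenic sorts, and so did Cd79a and Itgam. Genes that epithelium also expresses, such as Cd14 and Arg2, cannot be assigned to leukocytes by such a ratio.

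The next comparison asked how far the intestinal combined sort differed from the tissue it came from. Of 15208 genes 2 (0.0132%) were called higher and 547 (3.6%) lower than in all intestinal cells, together 3.61%. Library 1 and library 3 of the intestinal sort correlated best with the equally numbered library of all intestinal cells (0.984 and 0.976), above any library of their own group. None of the 116 epithelial genes tested was called by limma in either direction, and at an unadjusted p under 0.05, 1 was higher and 5 were lower. The 547 lower genes included members of many lists, among them all 15 B cell, all 10 MHC class II, 13 of 19 T and NK cell, 7 of 10 Fc receptor, 6 of 20 monocyte, 8 of 22 suppressive mediator, 5 of 13 erythroid, 3 of 6 stromal and 3 of 5 endothelial genes. Most of these calls were lost in a fit of only these groups. It called 1 B cell, 1 MHC class II, 8 T and NK cell, 2 erythroid and 0 monocyte genes lower. There Cd79a had an adjusted p of 0.245 (0.0581 with all groups but without the first intestinal library) and H2-Aa one of 0.0505 by limma. With a replicate block, which pairs equally numbered libraries, the fit of only these groups kept most of these calls. It called 15 B cell, 10 MHC class II, 13 T and NK cell, 5 erythroid and 6 monocyte genes lower. Ptprc averaged 13.6 ± 0.38 TPM in the intestinal sort, against 55.5 ± 12.2 TPM in all intestinal cells (SD, n = 3 each), a log2 fold change of -1.93 ± 0.21 (adjusted p = 2.02e-06). Hba-a1 averaged 6.87 ± 3.46 TPM in the intestinal sort and 238 ± 123 TPM in all intestinal cells (-4.86 ± 0.63, adjusted p = 8.29e-06).

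The main antigens and granule genes of myeloid cells were not called higher than in the unsorted tissue. S100a8 averaged 21.9 ± 20.4 TPM in the intestinal sort and 27.3 ± 20.3 TPM in all intestinal cells (-0.45 ± 0.73, adjusted p = 0.977). Ly6g averaged 34.4 ± 6.79 TPM in the intestinal sort and 21.0 ± 6.07 TPM in all intestinal cells (0.71 ± 0.52, adjusted p = 0.718). It was higher in the sort in each of the 3 equally numbered pairs, at 34.9, 41.0 and 27.5 TPM against 27.9, 18.6 and 16.4 TPM, and with the replicate block, which fits since these libraries deviated together, its limma adjusted p was 0.0651 (0.736 for S100a8). Mcpt1, a protease of mucosal mast cells, averaged 4.51 ± 1.88 TPM in the intestinal sort and 48.0 ± 20.0 TPM in all intestinal cells (-3.14 ± 0.33, adjusted p = 2.02e-06). Fitted on these 2 groups alone, the comparison called 36 genes, all of them lower, against 549 with all groups. These 2 groups alone gave 47 genes higher and 1958 lower at an unadjusted p under 0.05. With all groups but without the second library of all intestinal cells, 345 genes were called. The 2 genes called higher, chosen by that count, were Scgb2b15, a secretoglobin family member with 2.58 TPM in the intestinal sort and 0.15 TPM in all intestinal cells on average, and the provisional gene Gm28439 with 1030 and 397 TPM.

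The intestine-spleen difference was then set against that of the separate G and M sorts, which share no library with it. Relative to the G sorts, 266 genes (1.75%) were called, 242 (1.59%) with a higher and 24 (0.158%) with a lower intestine-spleen difference in the combined sorts, and relative to the M sorts, 1972 (13%) were called, 1261 (8.29%) higher and 711 (4.68%) lower. After rescaling by the median ratio the split against the M sorts was 589 higher and 1056 lower, and the median of all genes there moved to 0.00 from the 0.34 of the deposited scale, while the split against the G sorts was 269 higher and 31 lower. Colonic genes were called against both single sorts. Of 11 colonic genes, 10 had a higher difference than in the G sorts and all 11 a higher one than in the M sorts, whereas of 18 small-bowel genes only Fgf15 was called against either single sort, with a lower difference. Against the M sorts other lists had higher members as well, with all 9 Paneth cell, 8 of 13 goblet cell, 8 of 14 pan-epithelial and 15 of 23 cell cycle genes. After rescaling these counts were 8, 4, 2 and 0, while all 11 colonic genes were still higher. The splenic side differed too. Goblet cell genes summed to means of 9694 TPM in the combined and 9208 TPM in the M sort of intestine, and to 4.45 and 34.3 TPM in spleen. For Paneth cell genes these means were 18970 and 10220 TPM in intestine and 6.33 and 47.0 TPM in spleen. Pan-epithelial genes had 12630 and 11210 TPM, and 34.8 and 61.8 TPM. Cell cycle genes had 740.5 and 606.2 TPM, and 879.1 and 1557 TPM.

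Car1 shows the contrast. Its level averaged 1113 ± 364 TPM in the intestinal combined sort, 0.863 ± 1.22 TPM in the intestinal G sort and 0.317 ± 0.0322 TPM in the intestinal M sort (SD, n = 3 each). In the spleens it averaged 121 ± 73.7 TPM in the combined, 96.9 ± 35.5 TPM in the G and 276 ± 229 TPM in the M sort. The intestine-spleen difference was thus 9.23 ± 0.78 larger in the combined than in the G sorts and 10.81 ± 0.78 larger than in the M sorts (adjusted p = 3.44e-10 and 9.26e-12). Saa1, an acute-phase protein of colonic epithelium, averaged 775 ± 104 TPM in the intestinal combined sort against 4.84 ± 0.715 TPM in the G sort and 4.68 ± 1.48 TPM in the M sort. Tgm3, a transglutaminase, averaged 100.2 ± 22.2 TPM in the intestinal combined sort and 0.0233 ± 0.0208 and 0.02 ± 0.02 TPM in the intestinal G and M sorts. Unsorted intestine was like the combined sort in these genes, with 1181 ± 427 TPM of Car1 and 612 ± 81.4 TPM of Saa1.

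An ileal gene ran in the opposite direction. Fgf15, the ileal hormone that reports bile acids to the liver, averaged 12.2 ± 4.16 TPM in the intestinal combined sort, 66.6 ± 58.8 TPM in the intestinal G sort and 68.1 ± 54.7 TPM in the intestinal M sort. Its intestine-spleen difference, combined minus G sorts, was -2.02 ± 0.54 (adjusted p = 0.0316), and -1.35 without the second intestinal G library. This call was lost in 10 of 20 alternative settings, 6 of them with 1 library left out. Fabp6 averaged 2859 ± 2068 TPM in the combined sort, 7679 ± 3545 TPM in the G sort and 7625 ± 3465 TPM in the M sort of intestine, with no difference called.

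Ly6g also differed between the combined and the single sorts. It averaged 34.4 ± 6.79 TPM in the intestinal combined sort, 1.97 ± 1.54 TPM in the intestinal G sort and 1.51 ± 0.449 TPM in the intestinal M sort. Unsorted intestine had 21.0 ± 6.07 TPM. Ly6g was not called between unsorted intestine and the combined sort (limma adjusted p = 0.718, and 0.0651 with the replicate block), although each equally numbered pair was higher in the sort. Its intestine-spleen difference was 4.11 ± 0.73 larger than in the G sorts and 4.33 ± 0.73 larger than in the M sorts (adjusted p = 0.000358 and 7.01e-05). S100a8 did not share this pattern, with differences of -0.50 ± 1.03 from the G sorts and 1.98 ± 1.03 from the M sorts, neither of them called. Leukocyte genes with a lower intestine-spleen difference in the combined than in the M sorts included Ptprc (-1.94 ± 0.30), Cd79a (-2.94 ± 0.58), Jchain (-3.46 ± 0.72) and Gzma, a granzyme of cytotoxic lymphocytes (-3.31 ± 0.68). That difference was also lower for all 10 MHC class II genes and all 15 B cell genes. B cell genes summed to means of 89.7 TPM in the combined and 440 TPM in the M sort of intestine, but to 23700 and 13270 TPM in spleen. For MHC class II genes these means were 626 and 3412 TPM in intestine and 9202 and 8082 TPM in spleen.

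**Figure D5:**
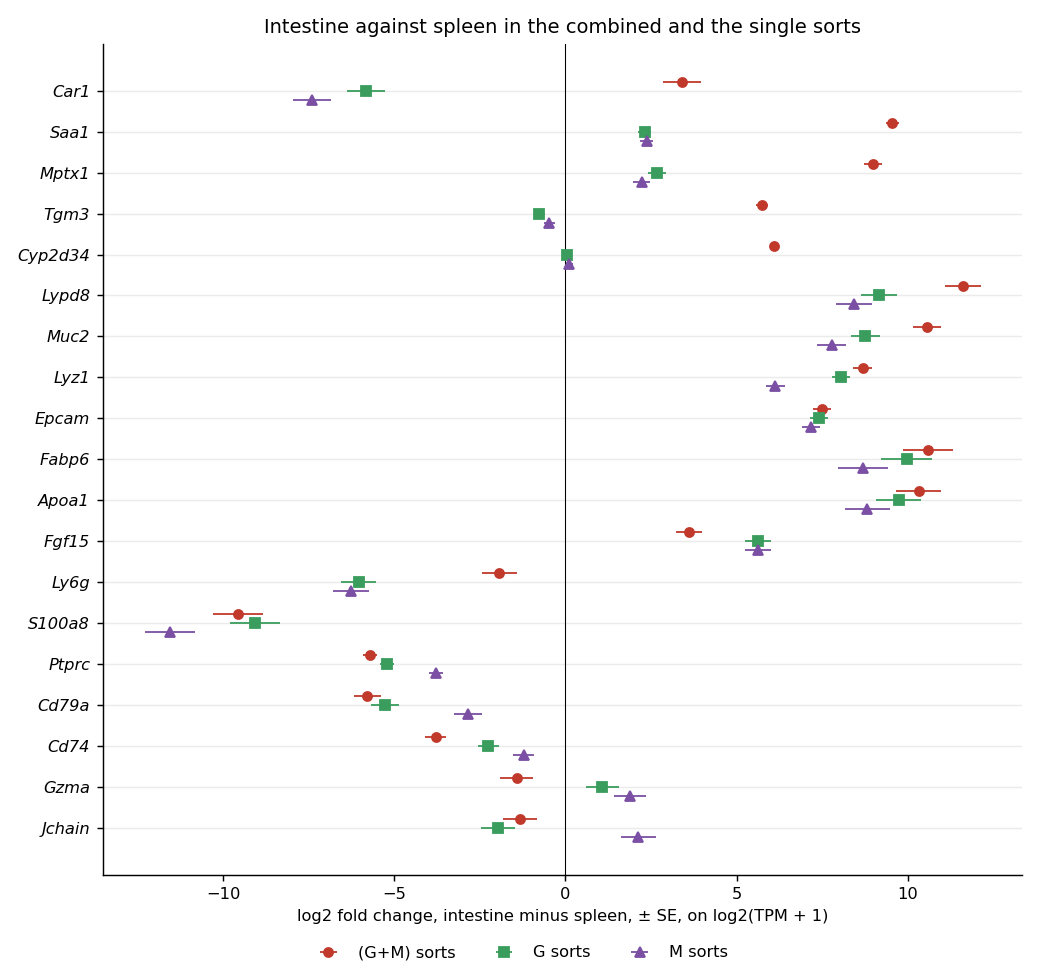
log2 fold changes, intestine minus spleen, ± SE of 19 genes in the combined (G+M), G and M sorts. Car1, Saa1, Mptx1, Tgm3, Cyp2d34 and Ly6g of the combined sorts lie to the right of both single sorts, and Cd74, Gzma and Fgf15 to the left.

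The libraries also differ in sex-linked transcripts, which touches these comparisons. Libraries 1 and 2 of both combined sorts carried the Y-linked gene Ddx3y (23.3 and 21.7 TPM in intestinal sorts, 52.0 and 45.9 TPM in splenic sorts) and library 3 of each had it listed at 0. In the G and M sorts of either tissue Ddx3y averaged at most 0.0167 TPM. Library 3 of the intestinal combined sort, like the single sorts without Ddx3y, had 1284 TPM of Car1 and 27.5 TPM of Ly6g. The means in the intestinal G sort were 0.863 and 1.97 TPM. The part of sex in the differences between combined and single sorts was not tested. Differences between combined and single sorts also cannot be told apart from differences between the mice, or the unstated stretch of intestine, behind the libraries.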

How the data were processed

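RNA of sorted cells was sequenced from 39 libraries in 13 groups of 3. Stranded mRNA libraries made from cells collected in Trizol were read as single 75 base reads, per the labels' protocols. Per the submitters' processing notes, STAR 2.6.1c, RSEM and mm10 were used. The authors deposited 1 table of TPM, as RSEM estimates them. No RSEM version or annotation is given in the sources used here. TPM hide read depth, and a few abundant genes lower all others.

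Here log2(TPM + 1) was fitted with limma 3.58.1 (R 4.3.3, trend) as 13 group means over all libraries. Genes needed a TPM of 1 in 3 of the 6 combined libraries, and p values were adjusted by Benjamini-Hochberg over 15208 genes. The fit was also run on simulated data in which few genes were changed. That run does not test the fit where 45.6% of genes are called. The ratios to Ptprc were added after the values were seen. Gene positions are from GENCODE M21 (mm10).

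The members and gene lists were chosen with earlier results of these data known. Named genes were a panel, the 15 largest and 15 smallest fold changes called at a mean TPM of at least 20, the 8 most abundant members of each list and the 5 largest and 5 smallest differences from the single sorts; a few others were named after their values were seen. Equally numbered intestinal and splenic combined libraries did not deviate together (r = -0.061, 0.116 and 0.057), whereas those of the combined sort and all intestinal cells did (0.698, 0.653 and 0.627).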

Additional observations from a re-analysis of the deposited data

Results flagged for a closer look

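These genes are listed because the test of the difference itself, combined minus single sort in the log2 change of intestine over spleen, passed. Against the G sorts, the larger differences were Car1 at 9.23, Saa1 at 7.22, Tgm3 at 6.50, Mptx1, a mucosal pentraxin, at 6.31, Cyp2d34, a cytochrome P450, at 6.04 and Ly6g at 4.11. The smaller ones were Gzma at -2.50, Fgf15 at -2.02, H2-DMa at -1.76, H2-DMb1 at -1.55 and Cd74, the invariant chain, at -1.54. Each of these smaller ones lost its call in some of the alternative settings, as counted below.

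Against the M sorts, epithelial genes again had the larger differences, with Car1 at 10.81, Saa1 at 7.16, Mptx1 at 6.75, Tgm3 at 6.21, Cyp2d34 at 6.00, Muc2 at 2.78 and Lyz1 at 2.56, and Ly6g was at 4.33. The splenic sorts also differed in the lists of Muc2 and Lyz1. Goblet cell genes summed to means of 4.45 TPM in the combined and 34.3 TPM in the M sort of spleen, and Paneth cell genes to 6.33 and 47.0 TPM. Lymphoid and presenting genes had the smaller differences. Jchain was at -3.46, Gzma at -3.31, Pou2af1, a B cell coactivator, at -3.05, Gzmb at -2.97, Cd79a at -2.94, H2-Aa at -2.59, Ptprc at -1.94 and Cd3e at -1.63. Further single genes with smaller differences were Il1b at -2.85, Arg2 at -1.89, Cd274 at -1.88, Ptgs2 at -1.79 and Ly6c2 at -1.64.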

How the results depend on the processing

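For intestine against spleen, 6941 genes were called, 6813 to 6984 with 1 library left out (3338 to 3512 higher, 3301 to 3601 lower), and 11401 (6422 lower) with no fold minimum. The fit with a replicate block called 6862, of which 6840 were shared. The panel and the genes with the largest and smallest fold changes were run through all settings. Of these, Jchain lost its call in 5 settings (adjusted p = 0.0592 rescaled, 0.0861 in a fit of only the groups compared, 0.137 with the replicate block), and Ptgs2 gained one in 5. None of these genes changed direction between intestine and spleen. A few others were run only with 1 library left out, and C1qa, C1qb and Il18 lost their calls there. The remaining named genes were not run singly.

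Against the G sorts, 266 were called, 219 to 395 with 1 library left out (202 to 354 higher, 13 to 41 lower, the most without splenic combined library 3), 423 (64 lower) with no fold minimum, 174 (8 lower) in a fit of only these groups and 178 (166 higher, 12 lower) with the replicate block. Of 20 alternative settings, Cd74 lost its call in 13, Fgf15 in 10, Gzma in 9, H2-DMb1 in 8 and H2-DMa in 3. Against the M sorts, 1972 were called, 1587 to 2130 with 1 library left out (899 to 1521 higher, 600 to 764 lower), 5436 (4410 higher) with no fold minimum, 1108 (696 higher, 412 lower) in a fit of only these groups and 1250 (790 higher, 460 lower) with the replicate block. The higher genes numbered 589 after rescaling and 631 without mitochondrial and immunoglobulin genes.

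Against all intestinal cells, 549 were called, 345 to 762 with 1 library left out (1 to 4 higher, 343 to 760 lower, extremes without libraries 2 and 1 of all intestinal cells), 832 (4 higher, 828 lower) at a pseudocount of 0.1, 4 higher with no filter, 824 (14 higher) with no fold minimum, 36 (0 higher, 36 lower) in a fit of only these groups and 683 (3 higher, 680 lower) with the replicate block. The cause of these shifts was not tested. Read depth is unknown, so values near 0 TPM carry no interval, and the levels of near-identical copies (alpha-defensins, Sprr2a, Lyz1 and Lyz2) are uncertain.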
